A study of Arabidopsis thaliana with 6 samples.

Results

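The morning-high transcripts described here are 192 of the 33331 genes listed for RNA that came down with AtGRP7-GFP in Arabidopsis thaliana. They were chosen from measured values. Each library was first divided by its median over the 789 genes with a mean of 5 TPM or more, and a member then had a mean deposited TPM of at least 1 and below 5, a ratio of mean scaled TPM of at least 2 (LL24 over LL36), and every LL24 library above every LL36 library. TPM, a share of all transcripts quantified, is corrected for transcript length and holds no depth, and how many reads stood behind a value is unknown. The level window held 2018 genes, of which 192 (9.51%) met the rule and 104 (5.15%) met the same rule in the opposite direction. All differences between LL36 and LL24 given for members are therefore descriptions of what the rule selected, with no test. The paper left out transcripts below 5 TPM in its precipitates and called targets by enrichment over poly(A) RNA. Enrichment was not examined here, so being a member does not make a transcript a shown target of AtGRP7.

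RNA immunoprecipitation sequencing (RIP-seq) was done on aerial tissue of plants that carried AtGRP7::AtGRP7-GFP, a fusion driven by the AtGRP7 promoter, in the grp7-1 mutant. Plants grew for 16 days in cycles of 12 h light and 12 h dark, were moved to continuous light (LL), and were fixed in formaldehyde after 36 h (LL36, subjective evening, 3 libraries) or 24 h (LL24, subjective morning, 3 libraries). Subjective time of day and hours spent in continuous light differ together between the groups and cannot be separated. Both groups share the fusion and the mutant background, each sample pooled at least 10 plants, and RNA was not selected for poly(A) tails. Neither input RNA nor transcript levels outside the precipitate were used here, and no mock precipitate or precipitate of GFP alone was among the libraries. A lower value can reflect a less abundant transcript, weaker binding or fewer cells of a type. It can also reflect a different amount of precipitated fusion protein, or of RNA carried over without binding. These cannot be told apart.

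In plants, the circadian clock and light together time much of metabolism to the day. Transcripts for pigment synthesis, sulfur assimilation and chloroplast upkeep often accumulate around dawn, and B-box zinc finger proteins and the bZIP factor HY5 with its homolog HYH link light perception to such genes. Phenylalanine is turned by the phenylpropanoid pathway into lignin precursors and into flavonoids, pigments that screen ultraviolet light. AtGRP7 is itself a clock-controlled RNA-binding protein that binds many transcripts, its own included.

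Across the libraries, listed TPM summed to between 9.59% and 14.7% of 1000000 at LL36 and between 13.5% and 16.6% at LL24, and scaling factors ran from 0.613 to 1.13 at LL36 and from 0.922 to 1.27 at LL24. LL36 replicate 3 had the lowest sum and the lowest factor. AtGRP7 itself, the precipitated protein's transcript, had 207, 261 and 230.1 at LL36, against 2.9, 2.79 and 3.52 at LL24 scaled TPM, in replicates 1 to 3 of each time point, as all lists of 3 values below. Its level was thus far higher at LL36, opposite to the members. All 10 leaf mesophyll markers were above 0, with summed levels of 3582 to 3926 at LL36 and 4701 to 5743 at LL24. Flower and seed markers summed to 0.0320 to 0.117 at LL36 and 0.0256 to 0.0662 at LL24, with AP3, SESA1 and LEC1 at 0, and 10 handling stress markers summed to 14.2 to 21.5 at LL36 and 10.3 to 17.2 at LL24. Root markers (9 listed, NRT2.1, EXPA7 and COBL9 at 0) summed to 1.01 to 1.21 at LL36 and 1.33 to 1.86 at LL24. The 6 guard cell markers summed to 0.255 to 0.41 at LL36 and 0.623 to 0.8 at LL24, and their part in the members' values was not tested.

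Members are shown against the other genes of the window in the plot of level at LL36 against level at LL24.

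**Figure D1:**
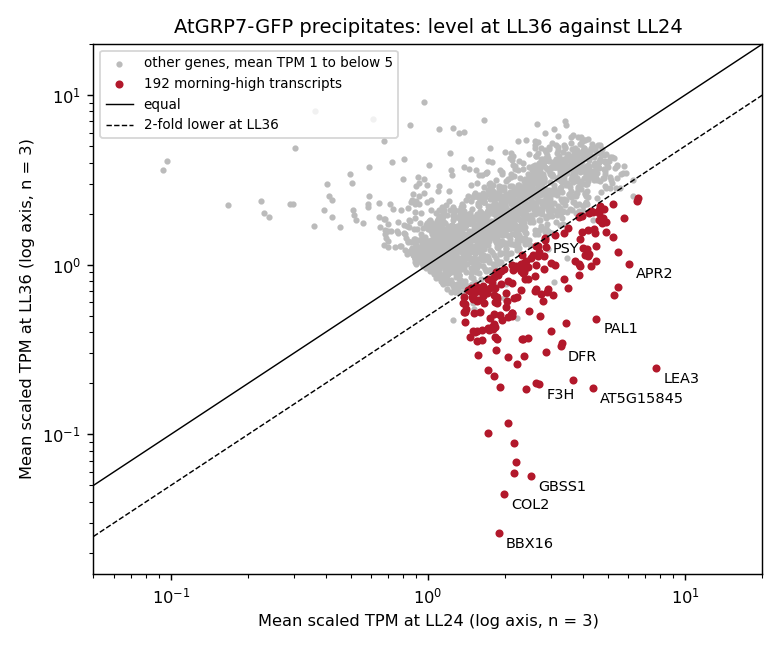
Mean scaled TPM per gene (n = 3 libraries) at LL36 on the vertical axis and at LL24 on the horizontal axis, both on log axes, for the 192 members (red) and the other 1826 genes of the window (grey, genes at 0 at LL36 left out). The solid line marks equal levels and the dashed line a 2-fold lower level at LL36, and the members extend down to BBX16 at 0.026 at LL36 and 1.89 at LL24.

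The ratio of LL24 over LL36 had quartiles of 2.32, 2.99 and 4.26 over the members and reached 72.4. In 96 members it was at least 3, in 36 at least 5, and in 15 at least 10. Over all genes of the window the median ratio was 1.00. As deposited, 144 members averaged below 1 TPM at LL36, and 24 averaged 5 TPM or more at LL24, so that a large part of the set sits under a limit of 1 at one time point and above it at the other. The rule limited how far replicates of a member could spread. The median coefficient of variation (SD over mean) of members was 14.3% at LL36 and 12.7% at LL24, beside 11.7% and 12.6% for the other genes of the window, and 10 members exceeded 50% at LL36 and 1 at LL24. The 192 members together made up 3.91% to 4.08% of the summed TPM of the window at LL36, against 12.1% to 12.9% at LL24.

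On the TAIR10.1 annotation 191 of the 192 members were found, 187 of them protein-coding, 3 long non-coding RNAs and 1 transcribed pseudogene. AT3G59778 was not found. Members lay on all 5 chromosomes, 53 on chromosome 1, 30 on chromosome 2, 37 on chromosome 3, 28 on chromosome 4 and 43 on chromosome 5. Their longest transcripts had a median length of 1360 nt and 3 exons, beside 1218 nt and 3 exons for the other genes of the window, and 19.9% had a single exon, beside 20.1%. A chloroplast or thylakoid is named in the annotation note of 42 of 180 protein-coding members with a note (23.3%), and of 376 of 1655 other genes of the window (22.7%). By length, exon number and such notes the members therefore looked like their level class.

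The 250 bases before each annotated gene start were searched on both strands for 7 short motifs known from light- and clock-regulated plant promoters. A G-box (CACGTG), the core bound by bZIP and bHLH factors, lay in 28 of 191 members (14.7%), in 126 of 1818 other genes of the window (6.93%) and in 5.39% of all 37897 annotated genes. The morning element (CCACAC) lay in 12.0% of members, 7.10% of the other genes and 6.13% of all genes, and the HUD motif (CACATG) in 15.7%, 12.1% and 10.9%. For the evening element (AAAATATCT) the shares were 3.14%, 2.59% and 2.11%, and for the CCA1 binding site (AAAAATCT) 8.38%, 6.60% and 6.11%. The I-box (GATAAG) was in 12.0%, 13.6% and 12.7%, and the telo box (AAACCCTA) in 1.57%, 3.8% and 4.75%. The G-box and the morning element can share bases, as in MIPS1. Among members with a ratio of at least 10, 5 of 15 held a G-box, of those from 3 to below 10, 11 of 81 (13.6%), and of those from 2 to below 3, 12 of 95 (12.6%). The share was thus higher in the 15 members of largest ratio alone, where it rests on 5 genes. These shares are descriptions, and a match is not a shown binding site.

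**Figure D2:**
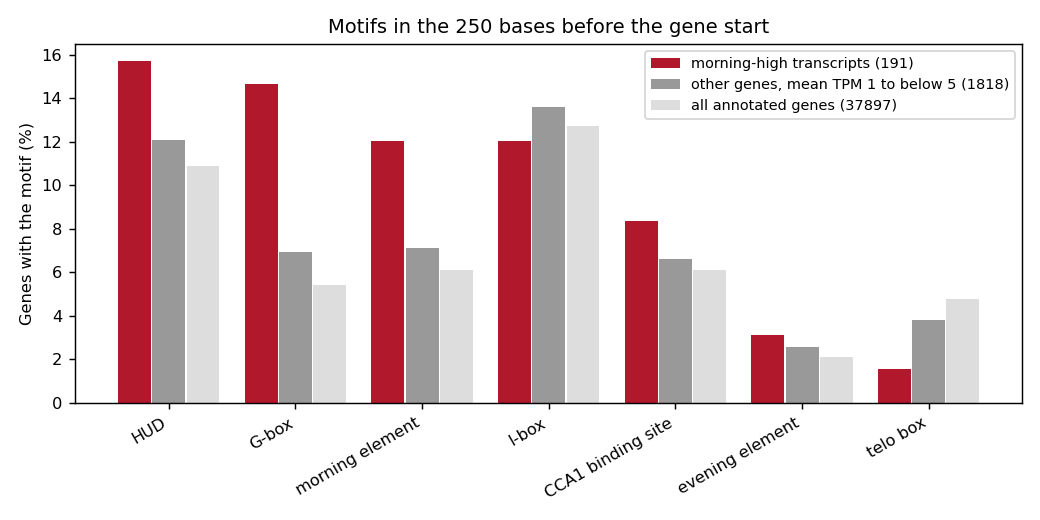
Share of genes (%, vertical axis, from 0) with each motif (horizontal axis) in the 250 bases before the gene start, for 191 members (red), 1818 other genes of the window (dark grey) and 37897 annotated genes (light grey). The G-box bar of the members is at 14.7% and that of the other genes of the window at 6.93%.

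Stretches from promoters of members that hold these motifs are shown because they belong to members of large ratio with a G-box, to MIPS1 with 3 G-boxes, and to the clock-linked B-box gene STO. They are read from TAIR10.1, 5′ to 3′ on the gene strand, with the named motif in capitals. No other gene with a TPM value lies in these stretches, and annotated genes without one were not checked.
ERD9 (chr1:3398429-3398488, minus strand, G-box): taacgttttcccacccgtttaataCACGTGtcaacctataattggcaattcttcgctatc
UP6 (chr1:5727477-5727536, minus strand, G-box): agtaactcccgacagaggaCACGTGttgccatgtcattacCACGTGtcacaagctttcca
F3H (chr3:19024942-19024991, plus strand, G-box): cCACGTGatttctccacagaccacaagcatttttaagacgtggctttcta
CHIL (chr5:1563196-1563255, plus strand, G-box): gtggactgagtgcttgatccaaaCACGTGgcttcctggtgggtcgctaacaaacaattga
DFR (chr5:17166033-17166092, minus strand, G-box): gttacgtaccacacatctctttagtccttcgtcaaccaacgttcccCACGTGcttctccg
MIPS1 (chr4:18472099-18472198, minus strand, G-box): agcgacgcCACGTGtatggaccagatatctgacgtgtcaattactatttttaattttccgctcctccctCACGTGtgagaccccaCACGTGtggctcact
STO (chr1:1830014-1830073, minus strand, evening element): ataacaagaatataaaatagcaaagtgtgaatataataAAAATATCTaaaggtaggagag
In the first 5 stretches the gene belongs to the members with the largest ratios among those that hold a G-box there, besides AT1G24580, which holds one in a stretch that overlaps a neighbouring gene. UP6 holds 2 and MIPS1 holds 3 of them, and the last copy in MIPS1 shares bases with the letters of the morning element on both strands.

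Regulators of light signalling and the clock had the largest differences of the role groups (median ratio 10.0 over 7 members). BBX16 (AT1G73870; chromosome 1, 27778984 to 27780809, plus strand), a B-box zinc finger protein, had 0.0128, 0.0388 and 0.0265 at LL36, against 2.32, 1.81 and 1.53 at LL24 scaled TPM. Its ratio of 72.4 was the largest of all members. COL2 (AT3G02380), CONSTANS-LIKE 2, another B-box protein, had 0.0312, 0.0471 and 0.0546 at LL36, against 2.03, 2.02 and 1.9 at LL24, a ratio of 44.8. It overlaps AT3G02370 and AT3G02390 on the opposite strand and shares 15.7% of its 100-nt stretches with them. STH (AT2G31380) and STO (AT1G06040), related B-box proteins that act in light and ultraviolet responses, averaged 0.102 ± 0.024 at LL36 and 1.71 ± 0.0608 at LL24 (SD, n = 3 each) and 0.695 ± 0.0585 at LL36 and 2.61 ± 0.165 at LL24 (SD, n = 3 each). STH was the member nearest the lower level limit, with a mean deposited TPM of 1.01. The ratios of these 4 B-box members run from 3.75 to 72.4. How many B-box genes the window held was not counted, so 4 cannot be set against the 9.51% of its genes that met the rule. In the same group HYH, a bZIP factor of light-driven growth, had 0.185, 0.168 and 0.217 at LL36, against 1.97, 1.84 and 1.9 at LL24 scaled TPM, a ratio of 10.0. Its partner HY5, not a member because its mean deposited TPM was 0.296, averaged 0.166 ± 0.0227 at LL36 and 0.395 ± 0.12 at LL24 (SD, n = 3 each). RPT2, a phototropism protein, and LCL1, a MYB-like relative of LHY and CCA1 also called RVE4, had ratios of 7.41 and 4.23, with 0.516, 0.527 and 0.462 at LL36, against 2.35, 2.13 and 1.88 at LL24 for LCL1. LCL1 was the only tested gene of the list of morning-phased clock genes, 11 of which were listed in the table. The others lay below 1 TPM, and their ratios differed widely and in direction. Among them were LHY at 67.7, CCA1 at 35.0 and PRR7, lower at LL24, at 0.302.

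**Figure D3:**
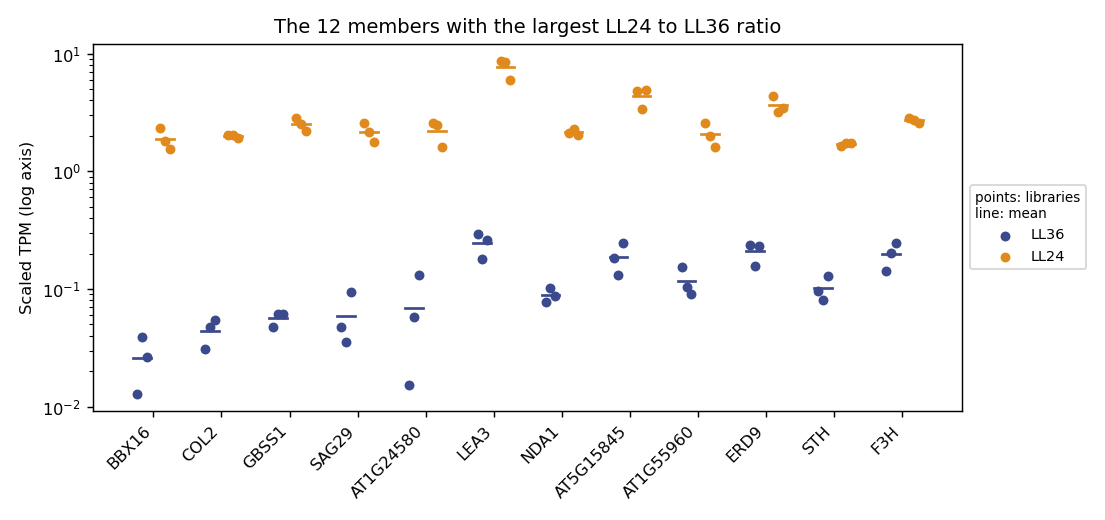
Scaled TPM (log axis) of the 12 members with the largest ratio of LL24 over LL36, from the largest on the left, with the 3 LL36 libraries (blue) left of the 3 LL24 libraries (orange) of each gene and a line at each mean. All LL36 points lie below 0.3 scaled TPM and all LL24 points above 1.5.

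Flavonoid and phenylpropanoid enzymes formed one of the largest role groups, with 16 members and a median ratio of 4.53. At the entry of the pathway, PAL1 and PAL2, phenylalanine ammonia lyases that make cinnamate from phenylalanine, had 0.436, 0.477 and 0.527 at LL36, against 4.27, 4.55 and 4.74 at LL24 (PAL1, ratio 9.41) and 0.335, 0.341 and 0.271 at LL36, against 1.9, 1.82 and 1.82 at LL24 (PAL2, ratio 5.85). PAL3 and PAL4, at mean deposited TPM of 0.0947 and 0.106, lay below the level window. ADT4, arogenate dehydratase, which supplies phenylalanine, had a ratio of 2.3 with narrow replicates, 0.736, 0.754 and 0.671 at LL36, against 1.64, 1.68 and 1.65 at LL24. C4H, cinnamate hydroxylase, and 4CL1, coumarate CoA ligase, follow PAL, and their ratios were 3.86 and 2.96. Of the lignin branch, HCT, CCR1, FAH1 and ATCAD4 had ratios of 2.2, 3.44, 2.56 and 4.18. CCR1 overlaps AT1G05213 and AT1G15960 on the opposite strand and shares 53.7% of its 100-nt stretches with them, and its value is uncertain for that reason.

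The largest ratios of the group, those of F3H, CHIL and DFR, lay in the flavonoid branch. Its other ratios, from 3.75 to 7.12, lay within the range of the steps above. CHIL, a chalcone isomerase-like protein that helps chalcone synthase, had 0.168, 0.21 and 0.223 at LL36, against 2.6, 2.39 and 2.93 at LL24 scaled TPM (ratio 13.2). F3H, flavanone 3-hydroxylase, had 0.143, 0.201 and 0.247 at LL36, against 2.82, 2.73 and 2.58 at LL24 (ratio 13.8), and shares 75.7% of its stretches with the antisense locus AT3G51238, which averaged 0.00229 at LL36 and 0.0314 at LL24 scaled TPM. DFR, dihydroflavonol reductase of the anthocyanin branch, had 0.332, 0.329 and 0.328 at LL36, against 4.27, 2.71 and 2.86 at LL24 (ratio 9.94). At LL36 its 3 libraries were almost equal, and at LL24 replicate 1 was the highest. Of the sugar-attaching steps, UGT78D2 and UGT78D1, which glycosylate flavonoids, had ratios of 7.12 and 3.75, RHM1, which makes UDP-rhamnose, 5.12, and GSTF12, a glutathione transferase linked to anthocyanin deposition, 4.88. GSTF12 and the phytoene synthase gene PSY overlap by 108 bases on opposite strands, and each shares under 1% of its stretches with the other.

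Not all of the pathway is in the level window. On the fixed list of 30 phenylpropanoid and flavonoid genes, 15 were tested, 12 of them members, and of the other 3, all were lower at LL36. Of all 2615 tested genes that are not members, 16.1% were called lower and 17.2% higher at LL36. This is the background for the counts of this list and of the lists below, and its split depends on the scaling. This list and the other fixed lists were chosen with earlier results of these data known. Chalcone synthase TT4, above the window, averaged 1.13 ± 0.0579 at LL36 and 19.7 ± 1.82 at LL24 (SD, n = 3 each) (limma log2 difference of LL36 minus LL24 -4.00, SE 0.10, adjusted p = 1.0e-06). CCOAOMT1 and OMT1, inside the window but with ratios below 2, had log2 differences of -0.73 (SE 0.09, adjusted p = 9.2e-04) and -0.83 (SE 0.12, adjusted p = 0.0014). Below 1 TPM and so untested were TT5, FLS1, LDOX and TT7, chalcone isomerase, flavonol synthase, leucoanthocyanidin dioxygenase and flavonoid 3'-hydroxylase. TT5 averaged 0.23 ± 0.0218 at LL36 and 1.37 ± 0.0826 at LL24 (SD, n = 3 each). LDOX averaged 0.143 ± 0.0236 at LL36 and 1.29 ± 0.22 at LL24 (SD, n = 3 each).

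**Figure D4:**
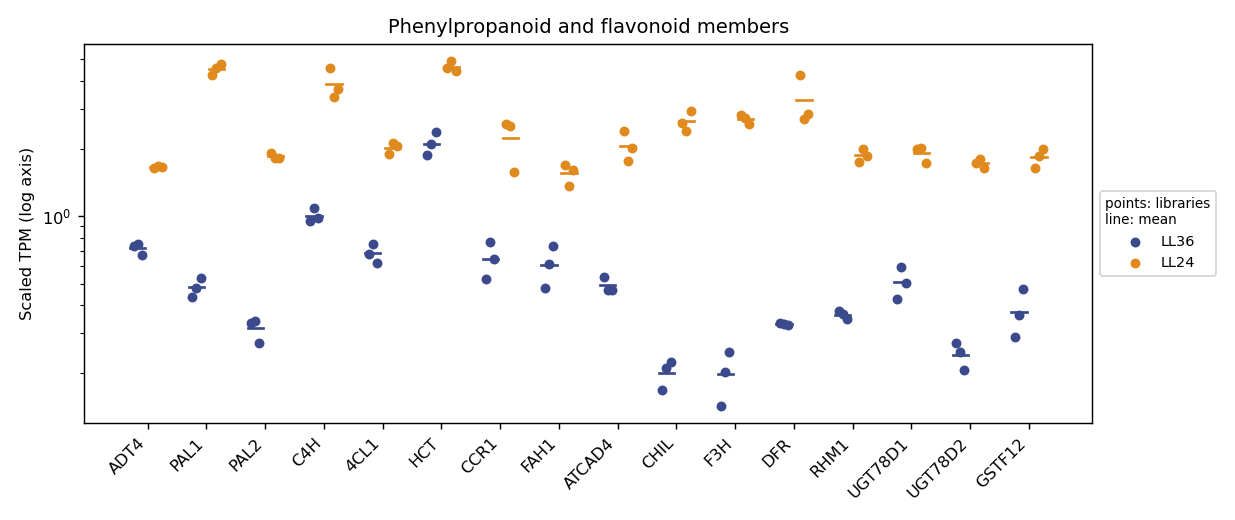
Scaled TPM (log axis) of the 16 phenylpropanoid and flavonoid members, ordered along the pathway from ADT4 to GSTF12, with the 3 LL36 libraries (blue) left of the 3 LL24 libraries (orange) and a line at each mean. The lowest LL36 levels belong to F3H and CHIL, and HCT has the smallest ratio, 2.2.

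Isoprenoid and carotenoid synthesis gave 6 members, with a median ratio of 2.55. CLA1, the deoxyxylulose phosphate synthase that opens the plastid isoprenoid pathway, had 0.967, 1.11 and 0.834 at LL36, against 2.52, 2.33 and 2.48 at LL24, and HDR, which closes it, 1.89, 1.84 and 1.73 at LL36, against 5.91, 3.95 and 4.3 at LL24. Their ratios were 2.52 and 2.59. Further on, PSY, which makes phytoene, sat at the fold limit with a ratio of 2.00, LYC, lycopene cyclase, had 2.32, and BETA-OHASE 1, a carotene hydroxylase, 2.75. ABA1, zeaxanthin epoxidase of the xanthophyll cycle, stood apart with 0.356, 0.377 and 0.36 at LL36, against 2.59, 2.31 and 2.12 at LL24 and a ratio of 6.43. Of the 9 tested genes on the fixed isoprenoid list, these 6 were members, and of the other 3 only HDS was called, lower at LL36 (log2 difference -0.57, SE 0.15, adjusted p = 0.021). The call of HDS was lost in 7 of 14 alternatives, with limma adjusted p up to 0.213 (TPM as deposited), and among them without LL36 replicate 1 or 3 (0.051 and 0.0526) and without LL24 replicate 1 or 2 (0.0696 and 0.0538).

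Sulfur and methionine metabolism contributed 11 members (median ratio 2.55). All 3 APS reductase genes, whose enzymes reduce activated sulfate, were among them. APR2 had 1.05, 1.1 and 0.888 at LL36, against 5.76, 5.27 and 7.08 at LL24 scaled TPM, with a ratio of 5.97, APR1 had a ratio of 2.55 and APR3 of 2.09. APR2 shares 39.7% of its stretches with AT1G08477 and AT1G62170 on the opposite strand. SERAT2;2, serine acetyltransferase of cysteine synthesis, had 0.947, 1.03 and 0.891 at LL36, against 1.97, 2.53 and 2.05 at LL24, and the low-sulfur genes LSU2 and LSU3 averaged 1.57 ± 0.228 at LL36 and 4.94 ± 0.977 at LL24 (SD, n = 3 each) and 0.728 ± 0.273 at LL36 and 1.47 ± 0.358 at LL24 (SD, n = 3 each). LSU3 varied more, with 0.946, 0.422 and 0.817 at LL36, against 1.42, 1.86 and 1.15 at LL24 in the libraries. Of methionine synthesis and recycling, MTO1 (cystathionine gamma-synthase) had a ratio of 2.55, MS2 (methionine synthase) 3.07, SAHH2 (adenosylhomocysteine hydrolase) 2.3, and ARD4 of the methionine salvage cycle 3.97. GR1, glutathione reductase, had a ratio of 3.97. Of 16 tested genes on the fixed nitrate and sulfur assimilation list, 5 were members (APR1, APR2, APR3, SERAT2;2 and GLU1). Beside a background of 16.1% lower and 17.2% higher, 5 of the other 11 were lower at LL36 and none higher. The 5 were NIA1, NIA2, GS2, GLN1;2 and APS1, with log2 differences of -0.56, -0.89, -0.72, -0.60 and -1.15. The call of NIA1 was lost in 8 of 14 alternatives, with limma adjusted p up to 0.189 (TPM as deposited), and among them without LL36 replicate 1 or 3 (0.0739 and 0.0653) and without LL24 replicate 1 or 3 (0.0691 and 0.0758), and that of GLN1;2 with the TPM as deposited (0.0975).

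Chloroplast functions made up 16 members with mostly modest ratios (median 2.41) and a few large ones. GBSS1, granule-bound starch synthase that makes amylose, had 0.0473, 0.061 and 0.061 at LL36, against 2.84, 2.54 and 2.18 at LL24 scaled TPM and the third largest ratio of all members, 44.7. ATH13, an ABC1-type plastid protein, had 0.253, 0.279 and 0.243 at LL36, against 2.78, 1.97 and 1.91 at LL24, a ratio of 8.59. GLDP2, a glycine decarboxylase subunit of photorespiration, had 1.08, 1.27 and 1.07 at LL36, against 4.67, 3.97 and 3.64 at LL24 (ratio 3.59), and GLU1, ferredoxin-dependent glutamate synthase that recaptures photorespiratory ammonium, 1.7, 1.51 and 1.42 at LL36, against 3.91, 2.94 and 3.28 at LL24 (ratio 2.19). The photosystem assembly and repair genes HCF244, OHP2 and FTSH1 had ratios of 2.63, 2.1 and 2.07. PnsB2, a subunit of the plastid NDH complex, had 2.52, FAD5 and SSI2, plastid fatty acid desaturases, 2.26 and 2.15, and FIB, a plastoglobule fibrillin, 2.31. LrgB, a plastid transporter of photorespiratory glycolate and glycerate, lay just inside the fold limit with 1.9, 1.94 and 2.00 at LL36, against 4.28, 4.04 and 3.42 at LL24. In 14 of these 16 members LL24 replicate 1 was the highest LL24 library, beside 88 of all 192. The share over all genes of the window was not computed for this library.

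One chloroplast locus depended on how reads were divided. AT5G36790, a phosphatase copy of photorespiration, had 0.749, 1.96 and 2.11 at LL36, against 4.87, 3.98 and 3.73 at LL24 scaled TPM and shares 94.6% of its stretches with AT5G36700 (PGLP1), which had 2.01, 0.624 and 0.164 at LL36, against 0.895, 0.906 and 0.436 at LL24. The 2 loci moved against each other at LL36, and their sum was 2.76, 2.58 and 2.27 at LL36, against 5.77, 4.88 and 4.17 at LL24, a ratio of 1.95. A second case was DIR1, a lipid-transfer protein of systemic defence signalling. It shares all of its stretches with the antisense locus AT5G48480, and the sum over both had a ratio of 1.36, while DIR1 alone had 2.53.

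**Figure D5:**
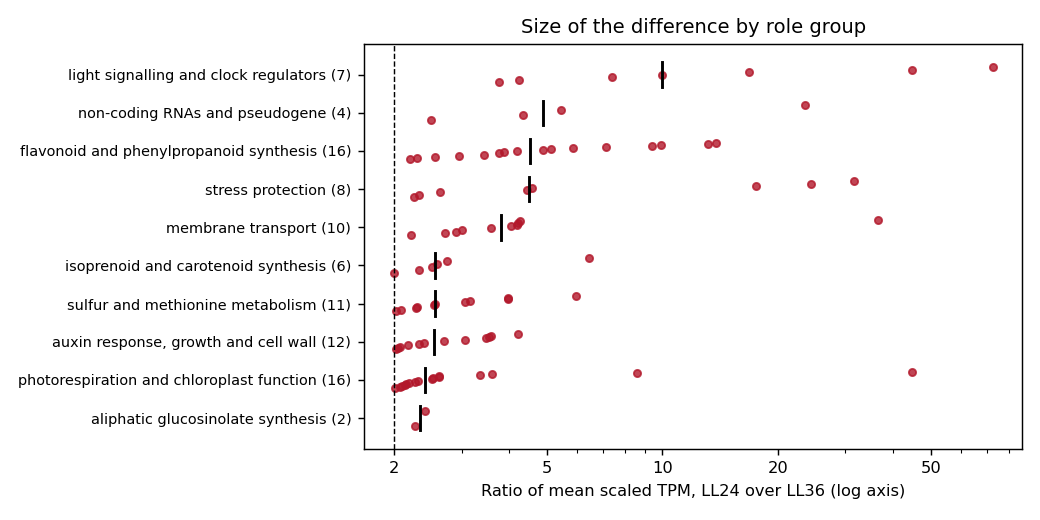
Ratio of mean scaled TPM, LL24 over LL36 (log axis), for the 92 members placed in a role group, 1 point per gene, with the number of members in parentheses, a black line at the median and a dashed line at the limit of 2 that the rule set. The light signalling and clock group has the highest median, 10.0, and its points reach 72.4.

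Stress protection held 8 members. LEA3, a late embryogenesis abundant family protein, was the most abundant of the large-ratio members, with 0.294, 0.181 and 0.259 at LL36, against 8.7, 8.55 and 5.95 at LL24 scaled TPM, a ratio of 31.6. NDA1, an alternative mitochondrial NAD(P)H dehydrogenase known to respond to light, had 0.0777, 0.101 and 0.0867 at LL36, against 2.13, 2.31 and 2.04 at LL24, a ratio of 24.3. The glutathione transferases ERD9 and GSTF6 had ratios of 17.56 and 4.57. VTC2, the GDP-L-galactose phosphorylase of ascorbate synthesis, had 0.808, 0.852 and 0.948 at LL36, against 4.72, 4.09 and 2.78 at LL24. It lies 1351 bases from AT4G26860, also a member with no gene between. P5CS1 of proline synthesis and RD22, a dehydration-responsive protein, had 2.32 and 2.26. AT3G02480, a LEA family protein, spread widely at LL36, with 0.223, 0.949 and 1.5 at LL36, against 2.31, 2.8 and 1.93 at LL24.

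Among 10 transporters, SAG29, a SWEET-type sugar transporter, had 0.0479, 0.0355 and 0.0945 at LL36, against 2.56, 2.15 and 1.78 at LL24, a ratio of 36.5. The plastid phosphate transporter PHT2;1 had 4.26, the copper transporter COPT2 4.21, the tonoplast malate transporter TDT 4.18 and the manganese transporter MTP11 4.03. The iron-linked oligopeptide transporter OPT3 had 3.58, and the water channels PIP1A and TIP2;2 had 2.9 and 2.22. Replicates agreed closely for MTP11, with 0.444, 0.441 and 0.456 at LL36, against 1.94, 1.72 and 1.74 at LL24.

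The auxin response, growth and cell wall group held 12 members. The auxin-responsive SAUR genes AT4G38840 and AT4G38860, 4677 bases apart, had 1.12, 1.38 and 1.37 at LL36, against 3.4, 4.45 and 5.6 at LL24 and 0.589, 0.785 and 0.700 at LL36, against 3.06, 3.44 and 2.25 at LL24, with ratios of 3.48 and 4.21. AGP17, an arabinogalactan protein of the cell surface, had 0.67, 1.18 and 0.496 at LL36, against 1.43, 2.06 and 2.86 at LL24, and SHY2, an Aux/IAA repressor, 0.766, 0.963 and 0.515 at LL36, against 1.42, 1.16 and 2.02 at LL24. SHY2 shares 31.2% of its stretches with AT1G04230 on the opposite strand. LL24 replicate 3 was the highest LL24 library and LL36 replicate 3 the lowest LL36 library in 5 of these 12 members, beside 25 of 192 members (13%) and 382 of 2018 genes of the window (18.9%). AGP17 and SHY2 were among these 5. Among the 7 without that pattern were AT4G38840, AT4G38860 and AT2G21210, a further SAUR-like member with a ratio of 3.07. It was seen in 2 of 11 sulfur and methionine members, in 1 of 7 light signalling and clock members, and in none of the other role groups. EXPB3 (a beta-expansin) and XTH32 (a xyloglucan endotransglucosylase) loosen or remodel walls and had ratios of 3.57 and 3.53, and PSK3 and PSY1 encode sulfated peptide growth signals, with 2.07 and 2.03. Among 9 tested genes on the fixed auxin list, 3 were members (SHY2 as IAA3, and 2 SAUR genes), and of the other 6 only IAA16 was called, lower at LL36 (log2 difference -0.48, SE 0.14, adjusted p = 0.034). That call was lost in 8 of 14 alternatives, with limma adjusted p up to 0.237 (TPM as deposited), and among them without LL36 replicate 2 or 3 (0.101 and 0.0901) and without LL24 replicate 1 or 3 (0.119 and 0.104). The aliphatic glucosinolate genes IPMI1 and IPMI2, isopropylmalate isomerases, had ratios of 2.4 and 2.27. Of the other 6 tested genes of that pathway 4 were lower at LL36 and none higher, beside a background of 16.1% lower and 17.2% higher.

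Over all 15 fixed pathway lists 116 entries were tested, 33 of them members. Of the 83 that were not, limma called 33 lower and 5 higher at LL36. Because the lists were chosen with earlier results of these data known, these counts are descriptions and not independent evidence. Background calls over the 2615 tested genes that are not members were 420 lower (16.1%) and 450 higher (17.2%) of them. Every tested gene included, 609 of 2807 were lower (21.7%) and 450 higher (16%), with a median log2 difference of 0.0032. The split depends on the scale. With the TPM as deposited, 365 were lower and 83 higher, and with the listed TPM rescaled to 1000000, 404 and 185. Neither the light-harvesting list (19 tested, 10 lower, 1 higher) nor the chlorophyll list (16 tested, 4 lower, 3 higher) had a member. The genes of both lists called lower had a mean deposited TPM above 5, among them HEMA1, just over the limit with a mean deposited TPM of 5.02 and a ratio of 2.79.

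Non-coding members were few. AT5G15845, annotated as a long non-coding RNA (chromosome 5, 5173081 to 5178291, plus strand), had 0.183, 0.133 and 0.244 at LL36, against 4.83, 3.41 and 4.91 at LL24 scaled TPM, a ratio of 23.5. It overlaps CO, COL1 and AT5G15860 on the opposite strand and AT5G15853 on the same strand. With COL1, AT5G15853 and AT5G15860 it shares 38.3% of its stretches. CO and COL1 averaged 0.00138 at LL36 and 0.0179 at LL24 and 0.0351 at LL36 and 0.155 at LL24. The levels of AT5G15853 and AT5G15860 were not examined, so the source of the reads of AT5G15845 stays uncertain. AT1G06002 lies opposite the flavonol rhamnosyltransferase gene AT1G06000 and shares 96.5% of its stretches with it. It averaged 0.357 ± 0.00784 at LL36 and 1.55 ± 0.176 at LL24 (SD, n = 3 each), against 0.156 at LL36 and 0.581 at LL24 for AT1G06000. Strand use in the counting was not given in the sources used here, and reads of such pairs cannot be told apart. AT1G77992, opposite the sulfate transporter gene AT1G77990, had 0.118, 1.38 and 0 at LL36, against 3.31, 2.48 and 2.36 at LL24, and of its LL36 libraries replicate 2 was the highest and replicate 3 was listed at 0. AT1G77992 shares 79.2% of its stretches with AT1G77990, and its value is uncertain too. Of all members, 49 overlap a gene on the other strand, and 26 share over 10% of their stretches.

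The 8 members with the highest mean deposited TPM were AT3G47295 (4.85), AT1G18060 (4.76), LEA3 (4.41), AT2G21210 (4.15), AT1G22850 (3.97), APR2 (3.93), FAD5 (3.7) and AT3G44100 (3.68). AT3G44100, with 2.23, 2.33 and 2.12 at LL36, against 4.66, 4.68 and 4.72 at LL24 scaled TPM, and AT1G18060, with 2.53, 2.45 and 2.19 at LL36, against 6.56, 7.06 and 5.93 at LL24, had ratios of 2.11 and 2.73. Of the 8, LEA3 and APR2 had ratios above 5, beside 36 of all 192 members. Large ratios without a known role here were 32.2 for AT1G24580, a RING-type protein, and 13.1 for UP6. AT1G55960, of the polyketide cyclase/dehydrase and lipid transport superfamily, had 17.7 and no known role here either. The adjacent genes AT1G47395 and AT1G47400 (1876 bases apart) had 1.33, 0.811 and 1.43 at LL36, against 5.01, 6.06 and 5.4 at LL24 and 0.33, 0.265 and 0.625 at LL36, against 2.8, 4.13 and 2.09 at LL24. LL24 replicate 2 was the highest LL24 library in both.

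Just inside the fold limit were PSY (2.00) and LrgB (2.01), and just outside ACL (1.99) and DHNAT1 (1.98). At the lower level limit, STH (1.01 TPM) and AT1G65486 (1.01) were in, while SHM7 (1.00) and AT5G22390 (0.995, ratio 7.67) were out. At the upper limit, AT3G47295 was in and HEMA1 and AT5G08760 (5.4) were out. A further 12 genes met the fold but had overlapping time points, and these varied widely between replicates, as SYD with 0.0981, 1.24 and 0.077 at LL36, against 1.81, 0.0947 and 1.84 at LL24.

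The members were also set against the study's iCLIP list of transcripts crosslinked to AtGRP7-GFP at LL36, made from other libraries. On it were 12 of 192 members (6.25%), against 235 of 1826 other genes of the window (12.9%). The 12 were AT4G38840, AT2G21210, AT1G73600, PIP1A, AT1G29660, MTO1, CLA1, SERAT2;2, RD22, GLU1, AT1G66100 and LrgB, with ratios from 2.01 to 3.48. None of the 15 members with a ratio of at least 10 was on it. Since the list was made at the time point at which the members were low, these shares describe the overlap and no more. The study's iCLIP list at LL24 was not used here.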

How the data were processed

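RIP-seq libraries from 6 samples, 3 at LL36 and 3 at LL24, were grouped by sample title. The authors trimmed reads, aligned them with STAR 2.5.2a to AtRTD transcripts, quantified with Salmon 0.8.2 and summed per gene. rRNA and organelle genes were left out. The deposited unit was TPM. A further 6 columns, named for Col-2 (a wild type) at the same time points, could be tied to no sample and stayed out. No depth can be had from TPM.

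Each library was divided by its median over genes with a mean of 5 TPM or more. Log2(scaled TPM + 0.1) of the 2807 genes with mean TPM of 1 or more was fitted with limma 3.58.1 (R 4.3.3), trend on, time point only, two-sided, Benjamini-Hochberg at 0.05, checked on simulated data. A pseudocount understates changes of low genes. Genes named were those of largest ratio, highest TPM, fixed lists, iCLIP, limits, neighbours and role groups. Members, lists and role groups were chosen with earlier results of these data known. Replicates are 3 biological samples of bulked plants. Names and coordinates follow TAIR10.1. Alternatives were other scalings, fold limits, pseudocounts, level limits, a replicate block and leaving out each library.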

Additional observations from a re-analysis of the deposited data

How the results depend on the processing

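The number of members was 192. It became 349 at a limit of 1.5 and 96 at 3, and ran from 164 to 220 when 1 library was left out. With no lower level limit, an alternative chosen after seeing the data, it was 1619. With the TPM as deposited it was 288, of which 191 were the members. All 192 were found again with trimmed-mean scaling (195) and with the listed TPM rescaled (203). In 118 members the rule held in all 6 leave-outs. With 11 members of a coefficient of variation over 50% left out, also chosen after seeing the data, 181 remained. The median ratio ran from 2.95 to 3.12 over the leave-outs and was 3.57 with the TPM as deposited.

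The fit's 1059 calls became 448 with the TPM as deposited, which shifted the median log2 difference of all genes to -0.30, 589 with the listed TPM rescaled, 344 at a mean of 5 TPM or more and 2067 with no limit, and ran from 780 to 918 over the leave-outs. With the replicate block, 861 genes were called. Same-numbered libraries did not deviate together (correlations of -0.090, -0.069 and -0.135). Deviations cancel within each time point, so these values cannot settle whether the numbers pair the samples, and the sources used here do not say. List calls ran from 55 to 72 over the leave-outs against 71, and were 62 with the replicate block. TPM gives no depth, so precision rests on 3 libraries.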
